A study of Mus musculus with 20 samples.

Results

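The serpins described are 10 genes, of 49315 in the expression table, measured by RNA sequencing of mouse livers. The genes are Serpina1a, Serpina1b, Serpina1c, Serpina1d, Serpina1e, Serpina3k, Serpina3m, Serpina3n, Serpina6 and Serpinb1a, taken by symbol. They were selected on measured values, their TPM levels and their S217879-minus-vehicle differences in these same libraries, so those differences are given as a description. Where they are set against the threshold of the comparison across all genes, this is a description too and supports nothing. Levels are in TPM, transcript abundance per unit of gene length and per library total. All 10 genes passed the minimum for the comparison across genes, a mean over the 20 libraries of 1 TPM.

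All 20 mice carried diet-induced obesity with steatohepatitis (DIO NASH) and were kept throughout on the AMLN diet, so no lean or chow-fed liver stands beside them. The vehicle group of 10 received HEC at 1%, and the S217879 group of 10 received S217879 by mouth once daily at 30 mg/kg, both for 8 weeks. The labels state no strain, sex or age. By the series title, S217879 disrupts the interaction of the transcription factor NRF2 with its repressor KEAP1, and the comparison asks what this does to steatohepatitis and liver fibrosis.

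Serpins are proteins that mostly inhibit serine proteases through an exposed reactive centre loop, which the protease cuts and which then traps it. The liver secretes several clade A serpins into plasma in large amounts, among them alpha-1-antitrypsin, an inhibitor of neutrophil elastase, and corticosteroid-binding globulin, a serpin that carries glucocorticoids and does not inhibit proteases. Clade B serpins stay mainly inside cells. Mice carry several copies of genes that are single in humans, and the loop is known as the place where the copies differ most.

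The coding sequences show how near the copies are to each other, which bears on how far a value can be assigned to 1 of them. Between any pair of the 5 Serpina1 genes, the mouse copies of the alpha-1-antitrypsin gene, the coding sequence was 96.3% to 98.5% identical, and 86 of the 1239 positions present in all 5 (6.94%) differed in at least 1 copy. In the 60-base stretch within a single exon where differences were densest, 18 of 60 positions (30.0%) differed. That stretch lies near the end of the coding sequence and holds codons of the reactive centre loop. It is shown 5′ to 3′ on the coding strand from GENCODE transcripts on GRCm38, with capitals at the positions that differ among the 5 copies. The stretches lie on the minus strand at chr12:103853757-103853816 (Serpina1a), chr12:103728324-103728383 (Serpina1b), chr12:103895094-103895153 (Serpina1c), chr12:103763762-103763821 (Serpina1d) and chr12:103947100-103947159 (Serpina1e).
Serpina1a: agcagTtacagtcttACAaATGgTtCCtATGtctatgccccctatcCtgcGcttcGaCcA
Serpina1b: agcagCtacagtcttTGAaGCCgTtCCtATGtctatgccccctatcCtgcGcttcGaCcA
Serpina1c: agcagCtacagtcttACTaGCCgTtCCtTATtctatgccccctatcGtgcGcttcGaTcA
Serpina1d: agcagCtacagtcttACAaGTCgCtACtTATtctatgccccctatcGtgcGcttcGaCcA
Serpina1e: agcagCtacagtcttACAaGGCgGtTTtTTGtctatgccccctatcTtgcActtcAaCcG

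The 3 Serpina3 genes, mouse relatives of alpha-1-antichymotrypsin, differed more from each other, with 82.9% to 91.7% identity between pairs. Their densest 60-base stretch, again over the reactive centre loop, differed at 26 of 60 positions (43.3%). It is shown in the same way, on the plus strand at chr12:104345267-104345326 (Serpina3k), chr12:104393767-104393826 (Serpina3m) and chr12:104413446-104413505 (Serpina3n).
Serpina3k: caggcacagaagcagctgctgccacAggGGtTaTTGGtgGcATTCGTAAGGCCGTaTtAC
Serpina3m: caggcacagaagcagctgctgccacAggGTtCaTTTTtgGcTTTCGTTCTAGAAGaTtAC
Serpina3n: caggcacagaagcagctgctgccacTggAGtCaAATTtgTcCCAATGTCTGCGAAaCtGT

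Serpinb1a has 2 close copies, Serpinb1b and Serpinb1c, with which it shared 90.4% and 89.9% of the coding positions compared. They are shown because Serpinb1b is compared with Serpinb1a further on. The densest stretch differed at 18 of 60 positions. It spans coding bases 485 to 544 in each copy, of 1137 in Serpinb1a. Unlike the Serpina1 and Serpina3 stretches, it does not lie near the end of the coding sequence. It is at chr13:32845694-32845753 on the minus strand (Serpinb1a), chr13:33091378-33091437 on the plus strand (Serpinb1b) and chr13:32884244-32884303 on the minus strand (Serpinb1c).
Serpinb1a: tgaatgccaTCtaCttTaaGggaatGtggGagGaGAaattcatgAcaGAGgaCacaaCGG
Serpinb1b: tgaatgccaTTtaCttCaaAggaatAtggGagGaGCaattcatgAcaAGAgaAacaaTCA
Serpinb1c: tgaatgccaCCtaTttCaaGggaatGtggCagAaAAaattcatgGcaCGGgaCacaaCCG

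Of all 50-base runs of the longest coding transcript, the share found also in a transcript of another gene was 67.4% for Serpina1a, 47.1% for Serpina1b, 74.2% for Serpina1c, 50.9% for Serpina1d and 37.9% for Serpina1e. It was 14.0% for Serpina3k, 19.1% for Serpina3m, 6.90% for Serpina3n, 3.42% for Serpinb1a and 0% for Serpina6. The sources used here do not give how reads that match several genes were counted, so the level of a single Serpina1 copy is uncertain and their sum is less so. Gm8893, which is outside that sum, also shares runs with Serpina1a, Serpina1b and Serpina1c, so the sum is not free of this limit. Serpina3k and Serpina3m also share 60 exon bases in the annotation, and 429 exon bases of Serpina1c lie opposite exons of B430119L08Rik, and the use of strand in counting is likewise not given.

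RefSeq promoter windows (GRCm38.p6, 250 bases before the start) were at hand for 6 of the 10 genes, the 5 Serpina1 genes and Serpina3n. Upstream of the Serpina1 starts lies a stretch of 84 bases that the copies share almost letter for letter, shown because the transcripts of the copies differed in direction between the groups. Capitals mark GTTAAT, an arm of the palindromic site of the liver transcription factor HNF1, found 21, 26, 27, 16 and 78 bases before the RefSeq start of Serpina1a, Serpina1b, Serpina1c, Serpina1d and Serpina1e. The windows are on the minus strand at chr12:103863627-103863710 (Serpina1a), chr12:103738202-103738285 (Serpina1b), chr12:103904964-103905047 (Serpina1c), chr12:103773636-103773719 (Serpina1d) and chr12:103956962-103957045 (Serpina1e).
Serpina1a: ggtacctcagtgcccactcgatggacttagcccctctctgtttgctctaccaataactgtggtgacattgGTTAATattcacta
Serpina1b: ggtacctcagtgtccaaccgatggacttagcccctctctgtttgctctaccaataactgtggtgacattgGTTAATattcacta
Serpina1c: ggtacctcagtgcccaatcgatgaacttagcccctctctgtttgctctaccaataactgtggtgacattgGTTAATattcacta
Serpina1d: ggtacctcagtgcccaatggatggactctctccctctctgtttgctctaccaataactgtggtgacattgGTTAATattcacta
Serpina1e: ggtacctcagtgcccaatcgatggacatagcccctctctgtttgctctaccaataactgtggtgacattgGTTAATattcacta

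GTTAAT was present on either strand in 6.43% of 32851 RefSeq promoter windows of the same length, and not in the Serpina3n window. The other 3 motifs were searched on both strands. TGACNNNGC, the core of the antioxidant response element that NRF2 binds, was in 10.2% of all windows, TTCNNNGAA, the STAT site, in 7.02%, and TATAAA, the TATA box, in 12.4%. None of these 3 was in the windows of the 6 matched genes. Over the 188 aligned promoter positions present in all 5 copies, Serpina1e was 95.2% to 97.9% identical to the other 4, and these were 92.6% to 97.3% identical among themselves.

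The serpins ran from some of the most abundant liver transcripts to a low one. In vehicle livers the order of mean levels was Serpina1b, Serpina3k, Serpina1c, Serpina1d, Serpina1a, Serpina3n, Serpina6, Serpina3m, Serpina1e and Serpinb1a. Serpina1b held a median rank of 40 among the 13401 genes tested in vehicle livers, whereas Serpinb1a held 9016. Neighbours in this order had overlapping ranges, except Serpina1e above Serpinb1a, although Serpina1d stood above Serpina1a in 10 of 10 vehicle livers. With S217879 the first 8 places were the same, only Serpina1d above Serpina1a and Serpina3m above Serpinb1a had ranges apart, and Serpinb1a (median rank 2766) stood above Serpina1e (4295) in 8 of 10 livers. The plot of levels by gene shows the 2 lowest genes changing places.

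**Figure D1:**
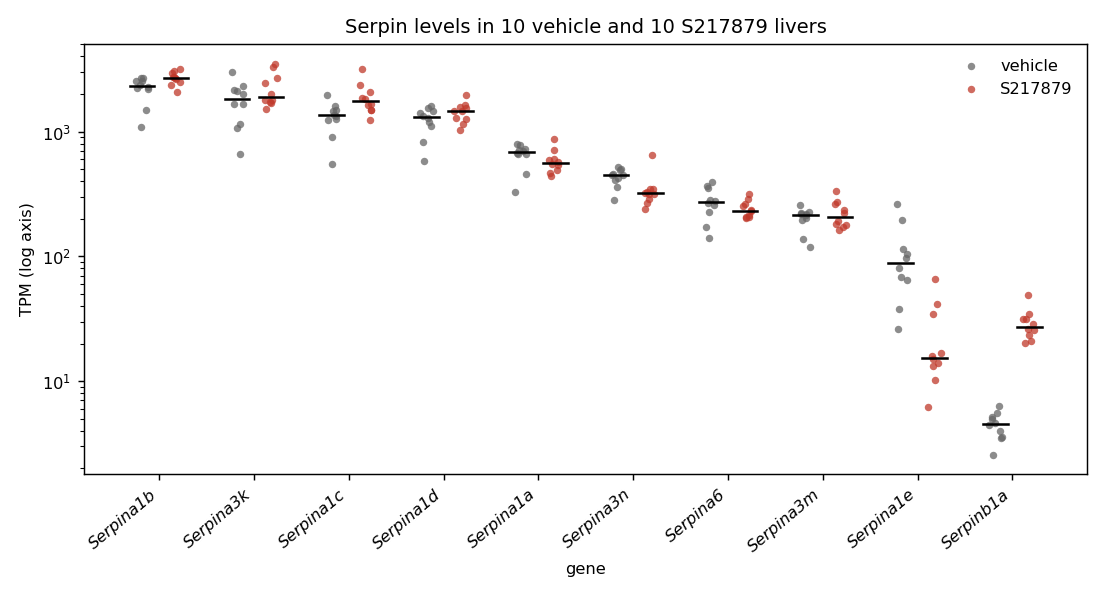
TPM (log axis) of the 10 serpin genes, 1 point per liver, 10 vehicle in grey and 10 S217879 in red, with black bars at the group medians and genes ordered by vehicle mean. Serpina1e and Serpinb1a, at the right, are the genes whose groups stand farthest apart, and for Serpinb1a the groups do not overlap.

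The libraries differed in ways that touch these levels. The share of TPM taken by 4 rRNA-type genes ran from 17.4% to 58.2% in vehicle and from 14.1% to 38.1% in S217879 livers, and vehicle replicates 6 and 7 had 58.2% and 50.7%. These 2 livers had the lowest levels of their group for 8 of the 10 serpins, and results that depend on them are given without them as well. Albumin, the main hepatocyte product, was abundant in both groups (Alb mean 33782 TPM in vehicle and 29157 with S217879). Of 11 tested hepatocyte genes, 1 was past the threshold as higher (Ttr, log2 difference 0.50) and 2 as lower (Apoa1, -0.69, and Ahsg, -0.54). Their summed level had a median of 62262 TPM in vehicle and 49721 TPM with S217879. Depth cannot be read from TPM, so precision is given by the spread between animals alone. In bulk liver RNA, fewer cells of a type and less RNA per cell cannot be told apart.

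Between the groups, 4 of the 10 serpins were past the threshold of the fit across all genes (limma, Benjamini-Hochberg adjusted p under 0.05). Serpinb1a and Serpina1c were higher with S217879, and Serpina1e and Serpina3n lower. Over all 13401 genes 6.07% were past it as higher and 23.5% as lower, 29.6% in all, and nothing is read from the serpin count because the genes were picked with this contrast known. The groups did not overlap for 1 of the 10, Serpinb1a (higher), against 3.73% of all genes (1.84% higher, 1.89% lower). The median log2 difference was 0.19 over the 10 serpins and -0.12 over all genes. After median-of-ratios scaling, which sets the typical gene equal between libraries, the all-gene median became -0.01 and that of the serpins 0.31. Calls over all genes then split into 3561 higher and 3634 lower (26.6% and 27.1%, 53.7% in all) in place of 813 and 3151, and 6 serpins were past the threshold as higher and 2 as lower.

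**Figure D2:**
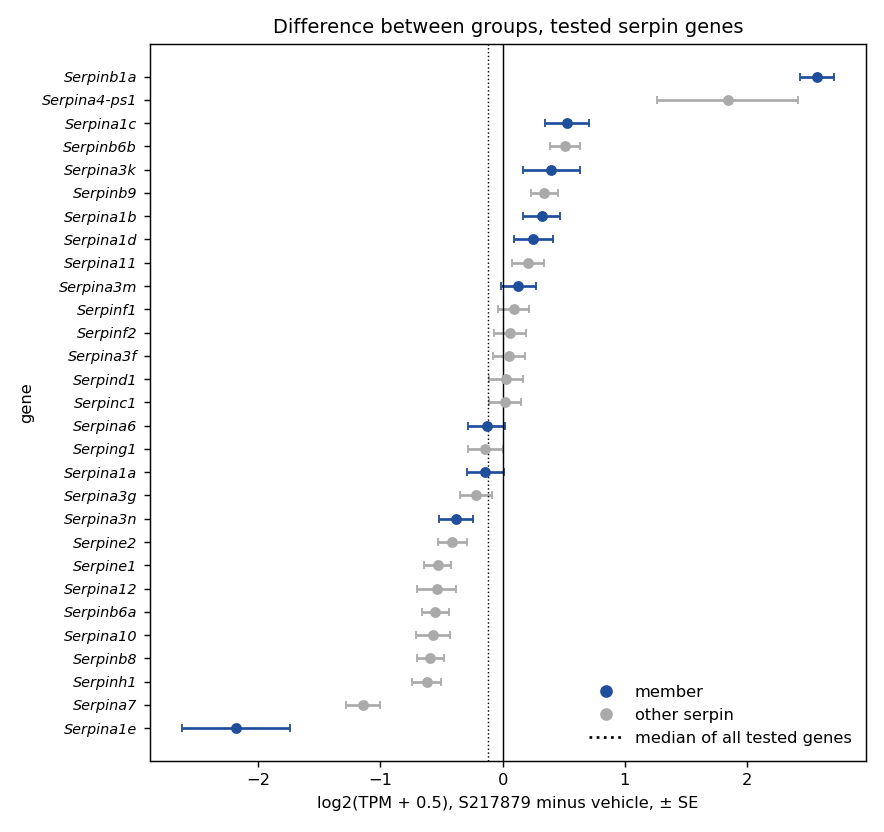
Difference in log2(TPM + 0.5), S217879 minus vehicle, for the 10 serpins described (blue) and the 19 other serpin genes tested (grey), with bars of 1 SE from the fit across all genes. The solid line is 0 and the dotted line the median of all 13401 genes (-0.12). Serpinb1a lies at one end at 2.57 and Serpina1e at the other at -2.18.

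Serpina1b, the most abundant alpha-1-antitrypsin copy, ranged from 1084 to 2687 TPM in vehicle livers (median 2327) and from 2055 to 3192 with S217879 (median 2698). The groups overlapped, with means of 2212 ± 529 and 2684 ± 339 (SD, n = 10 each) and a log2 difference of 0.32 (SE 0.15). Without vehicle replicates 6 and 7 this became 0.13, and with quantile normalization -0.05.

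Serpina1c, the next copy in level, lay between 551.6 and 1967 TPM in vehicle livers (median 1350) and between 1237 and 3194 with S217879 (median 1740). Of the S217879 livers 9 of 10 were above the vehicle median, but the ranges overlapped. The means were 1321 ± 385 and 1885 ± 559 (SD, n = 10 each), a log2 difference of 0.53 (SE 0.18). It was past the threshold in 29 of 32 alternative settings. It was not when array weights were used (0.22), when vehicle replicates 6 and 7 were left out (0.32), or when no minimum level was set.

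Serpina1d spanned 580.6 to 1589 TPM in vehicle (median 1300) and 1031 to 1951 with S217879 (median 1457), a log2 difference of 0.25 (SE 0.16). Serpina1a, the next copy in level, spanned 329.9 to 800.3 TPM (median 685) and 442.4 to 875.5 TPM (median 559), a log2 difference of -0.14 (SE 0.15). For both genes the groups overlapped. Without vehicle replicates 6 and 7 the difference of Serpina1d became 0.06 and that of Serpina1a -0.32. Summed over the 5 copies, the Serpina1 level was 5517 ± 1393 TPM in vehicle and 6604 ± 1208 TPM with S217879 (SD, n = 10 each).

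Serpina1e was the least abundant copy and the one with the largest difference. It ranged from 26.14 to 263.8 TPM in vehicle livers (median 88.7) and from 6.189 to 66.00 TPM with S217879 (median 15.4). All 10 S217879 livers lay below the vehicle median, while the 3 highest of them reached into the lower part of the vehicle range. The means were 105 ± 72.8 and 23.4 ± 18.6 TPM (SD, n = 10 each). The log2 difference was -2.18 (SE 0.44), the 11th lowest of 13401 genes, and it stayed between -2.65 and -2.0 in the 32 alternative settings.

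Shares within the Serpina1 sum do not depend on how a library is scaled, so they remove the spread that vehicle replicates 6 and 7 bring. Serpina1a made up 10.7% to 12.8% of the sum in vehicle livers and 7.88% to 10.1% with S217879, ranges that did not overlap (11.9 ± 0.600% and 8.81 ± 0.696%, SD, n = 10 each). Serpina1c made up 23.7 ± 1.46% in vehicle and 28.2 ± 3.38% with S217879, with overlap. Serpina1b kept the largest share, 40.3 ± 2.0% and 41.1 ± 3.34%, and Serpina1d 22.3 ± 1.03% and 21.6 ± 0.933%. The share of Serpina1e was 1.83 ± 0.987% in vehicle and 0.335 ± 0.235% with S217879. Relative to Serpina1b, Serpina1e stood at 4.66 ± 2.74% and 0.849 ± 0.660% (SD, n = 10 each). Without vehicle replicates 6 and 7 the vehicle shares of Serpina1a, Serpina1c and Serpina1e were 11.7%, 24.0% and 1.90%. Because 50-base runs are shared between the copies, a shift of reads from one copy to another cannot be told apart from a shift of transcripts.

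**Figure D3:**
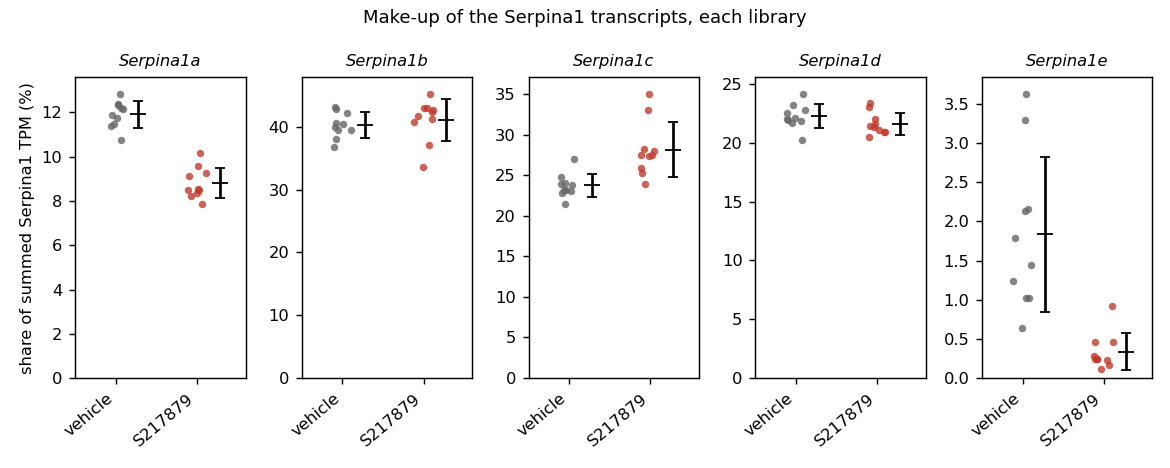
Share (%) of each Serpina1 copy in the summed Serpina1 TPM of a liver, 1 panel per copy with its own axis from 0, grey for vehicle and red for S217879, with mean and SD beside the points. The groups are separate for Serpina1a (10.7% to 12.8% against 7.88% to 10.1%), and most S217879 livers are below the vehicle range for Serpina1e.

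Serpina3k, an abundant antichymotrypsin-like serpin of mouse liver, ranged from 656.2 to 2979 TPM in vehicle (median 1826) and from 1524 to 3506 with S217879 (median 1901). The medians were close and the groups overlapped, with means of 1776 ± 684 and 2247 ± 709 TPM (SD, n = 10 each) and a log2 difference of 0.40 (SE 0.23). Serpina3m, its neighbour with a shared annotated first exon, ranged from 119.8 to 255.6 TPM (median 216) and from 162.8 to 332.2 TPM (median 208), a log2 difference of 0.13 (SE 0.14). Without vehicle replicates 6 and 7 the difference of Serpina3k was 0.15 and that of Serpina3m -0.02. Over the 32 alternative settings Serpina3k lay between 0.03 and 0.51, and Serpina3m between -0.07 and 0.25, so that its direction turned.

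Serpina3n, a secreted inhibitor known to be induced in the liver by inflammation and glucocorticoids, went the other way. It ranged from 284.6 to 523.8 TPM in vehicle (median 449) and from 241.1 to 646.7 TPM with S217879 (median 320). Of the S217879 livers 9 of 10 were below the vehicle median, and the tenth, replicate 9, was the highest of all 20. The means were 434 ± 71.8 and 341 ± 112 TPM (SD, n = 10 each), a log2 difference of -0.38 (SE 0.14). Without S217879 replicate 9 the S217879 mean was 307 ± 35.1 TPM (n = 9) and the difference -0.49. The difference stayed between -0.53 and -0.26 in the 32 alternative settings but was past the threshold in 15 of them, so the call rests on the setting while the direction does not. The ratio of Serpina3k to Serpina3n was 4.04 ± 1.37 in vehicle and 6.99 ± 2.45 with S217879, with overlap.

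Serpina6, which encodes corticosteroid-binding globulin, ranged from 139.1 to 394.2 TPM in vehicle (median 273) and from 201.6 to 316.0 TPM with S217879 (median 232). The S217879 values lay inside the vehicle range, with means of 274 ± 82.0 and 241 ± 38.8 TPM (SD, n = 10 each) and a log2 difference of -0.13 (SE 0.15). Without vehicle replicates 6 and 7 the difference was -0.32.

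Serpinb1a, an intracellular inhibitor of neutrophil-type serine proteases, was the member that separated the groups. It ranged from 2.578 to 6.337 TPM in vehicle livers (median 4.53) and from 20.15 to 48.57 TPM with S217879 (median 27.3). The lowest S217879 liver was above the highest vehicle liver. The means were 4.47 ± 1.11 and 29.1 ± 8.30 TPM (SD, n = 10 each). The log2 difference was 2.57 (SE 0.14), a 5.92-fold difference on the log2(TPM + 0.5) scale and the 28th highest of 13401 genes. It lay between 2.41 and 2.69 in the 32 alternative settings.

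Serpinb1a is also known from neutrophils, so neutrophil markers were set beside it. Of 16 such markers 5 reached the minimum level, and limma called 0 of them higher and 2 lower (0 and 2 at an unadjusted p under 0.05), with a median log2 difference of -0.34. Over all genes 6.07% were higher and 23.5% lower, and with 5 markers the count says little beside these shares. Their summed level was 63.6 to 124 TPM in vehicle and 34.8 to 131 TPM with S217879. Lcn2, which hepatocytes also make, supplied most of it (80.8 ± 15.6 and 42.4 ± 27.0 TPM). Among the defining markers Ly6g was at 0 in 7 vehicle and 6 S217879 livers, Mpo in 1 and 2, and Ctsg in 4 and 5. Elane, neutrophil elastase, averaged 0.504 ± 0.207 TPM in vehicle and 0.769 ± 0.379 TPM with S217879. Csf3r fell from 4.62 ± 0.819 to 2.77 ± 0.400 TPM (log2 difference -0.64, limma adjusted p = 8.84e-06). Of the 16 markers only Elane and Ly6g had a higher mean with S217879. Macrophage markers were lower for 8 of 10 tested and higher for 0 of 10 by the same limma fit (0 at an unadjusted p under 0.05). The part of these cells in the Serpinb1a difference was not tested.

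Serpinb1b, the nearest copy of Serpinb1a, lay below the minimum level of the comparison, so its values are given as a description with no test. It ranged from 0.02870 to 0.1424 TPM in vehicle livers (median 0.0809) and from 0.4354 to 1.621 TPM with S217879 (median 1.26), and the groups did not overlap. Serpinb1c, the other copy, was at 0.0445 ± 0.0380 and 0.176 ± 0.114 TPM (SD, n = 10 each), with overlapping groups. Serpinb1a exceeded these copies in TPM in both groups, and the runs that Serpinb1b shares with any other gene amount to 3.52% of its transcript.

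The clade A genes lie within a single cluster on chromosome 12 (GRCm38), which the annotation extends over 800.0 kb with 28 serpin genes, 15 of them tested. Serpina6 is at chr12:103646630-103657212, Serpina1b at chr12:103728156-103830373, Serpina1d at chr12:103763594-103773592, Serpina1a at chr12:103853589-103863562, Serpina1c at chr12:103894926-103904887 and Serpina1e at chr12:103946931-103958975, all on the minus strand. Serpina3k (chr12:104338486-104346144), Serpina3m (chr12:104338486-104394257) and Serpina3n (chr12:104406729-104414329) are on the plus strand. Serpinb1a is on chromosome 13 (chr13:32842092-32851185, minus strand). Among the tested serpins Serpina1c at 0.53 is next to Serpina1e at -2.18, and Serpina3m at 0.13 is next to Serpina3n at -0.38. Serpina1d at 0.25 and Serpina1b at 0.32, and Serpina3k at 0.40 and Serpina3m at 0.13, are neighbours with differences of the same sign.

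**Figure D4:**
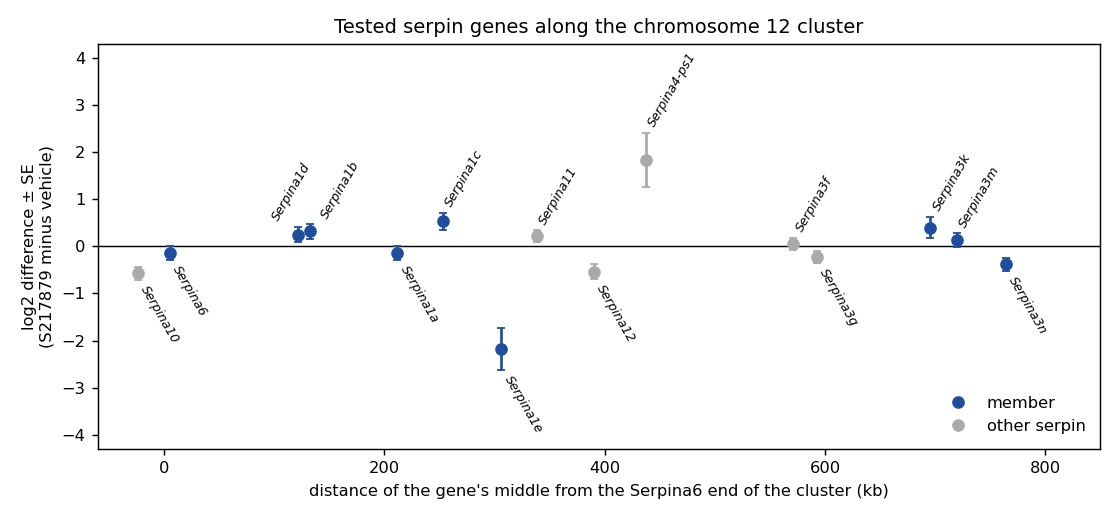
Log2 difference (S217879 minus vehicle, bars of 1 SE) of the 15 tested serpin genes against the distance in kb of each gene's middle from the Serpina6 end of the cluster, blue for the genes described and grey for the others. Serpina1e at -2.18 and Serpina4-ps1 at 1.84 lie on opposite sides of 0 within the same stretch.

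Beside the 10 genes, 58 other serpin genes are in the table, of which 19 reached the minimum level and 7 were at 0 in every library. By the fit across all genes 3 of the 19 were higher and 8 lower, with a median difference of -0.14. Serpina7, thyroxine-binding globulin, fell from 120 ± 27.1 to 55.0 ± 16.9 TPM (SD, n = 10 each), a log2 difference of -1.14 (SE 0.14, limma adjusted p = 5.56e-08). Serpina10, an inhibitor of coagulation factors, fell from 96.1 ± 15.6 to 65.7 ± 19.9 TPM (-0.57, limma adjusted p = 0.00109). Serpina12, the adipokine vaspin, fell from 42.3 ± 9.02 to 29.7 ± 10.4 TPM (-0.54, limma adjusted p = 0.00881). In the cluster these 2 lie at the outer side of Serpina6 and beyond Serpina1e.

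Serpinh1, a chaperone of collagen folding, fell from 42.1 ± 8.44 to 27.1 ± 4.85 TPM (log2 difference -0.62, limma adjusted p = 0.000136). Serpina4-ps1 rose from 10.3 ± 8.73 to 36.5 ± 38.0 TPM (1.84, limma adjusted p = 0.0217), with a wide spread and overlapping groups. Of the most abundant plasma serpins 5 were not past the threshold. These were Serping1, the C1 inhibitor (-0.14), Serpinf2, antiplasmin (0.06), Serpinc1, antithrombin (0.02), Serpinf1, the secreted factor PEDF (0.09), and Serpind1, heparin cofactor II (0.03), each with an SE of 0.13 or 0.14. Of the 10 serpins, Serpina1e and Serpinb1a lay farthest from these 5, as the plot of differences shows. Serpina1b, Serpina1c, Serpina1d, Serpina3k, Serpina3m and Serpina3n also lay outside the range of the 5, and Serpina1a lay just below it. Serpina6 lay within it.

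Lists of genes tied to the serpins' known functions were counted in the same fit. Over all genes 6.07% were higher and 23.5% lower in it. Among 25 tested proteases that include known serpin targets, 1 was higher and 6 lower, with a median of -0.12, the same as over all genes. After median-of-ratios scaling 7 proteases were higher, beside 26.6% of all genes. Without vehicle replicates 6 and 7, 16 proteases were lower (10 without replicate 6), beside 7303 of all 13401 genes (5195 without replicate 6). The higher one, Cela1, a chymotrypsin-like elastase, rose from 14.8 ± 3.24 to 31.1 ± 11.2 TPM (log2 difference 1.02, limma adjusted p = 1.80e-06). Among the 6 lower ones, Plat (-0.81, limma adjusted p = 3.11e-07) and St14 (-0.75, limma adjusted p = 7.39e-05) fell most. Of 19 genes of the secretory pathway, which serpins pass through, limma called 0 higher and 0 lower (1 and 1 at an unadjusted p under 0.05), and after median-of-ratios scaling 8 higher and 1 lower. Lower secretory genes numbered 6 without vehicle replicates 6 and 7, 3 without replicate 6 and 1 without replicate 7. Of 13 liver transcription factors limma called 0 higher and 2 lower (0 and 4 at an unadjusted p under 0.05), and 1 to 4 lower with any 1 library left out. In contrast, 19 of 23 tested NRF2 target genes were higher, with a median of 1.72 and Cbr3, a carbonyl reductase, moving from 8.25 ± 1.83 to 524 ± 149 TPM.

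Acute phase genes, the liver's response to inflammation, included 4 higher and 9 lower of 21 tested, with a median of -0.37. Orm2, an orosomucoid, fell from 119 ± 25.1 to 44.5 ± 16.0 TPM (log2 difference -1.45, limma adjusted p = 1.62e-10), while Orm3 rose from 38.5 ± 12.4 to 67.6 ± 18.6 TPM (0.83, limma adjusted p = 0.000303). Among 13 genes of the interleukin-6, STAT3 and glucocorticoid response 2 were higher and 3 lower. The lower ones numbered 9 without vehicle replicate 6, 6 without vehicle replicate 7 and 5 without S217879 replicate 9. Over all genes the lower ones numbered 3151, and 5195 without vehicle replicate 6. Fkbp5, a glucocorticoid-induced gene, rose from 14.7 ± 3.75 to 25.1 ± 6.16 TPM (0.76, limma adjusted p = 0.000121). Hsd11b1 was the other higher gene of this list (0.61, limma adjusted p = 0.00194). Among the lower ones were Pik3r1 (-0.53, limma adjusted p = 0.000435) and Per1 (-0.51, limma adjusted p = 0.00128).

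Within a group, the spread of Serpina3n between animals was set against an acute phase score, the mean of centred log2 levels of the 21 acute phase genes after median-of-ratios scaling. In the 10 S217879 livers Pearson's r was 0.97 and Spearman's rho 0.85 (permutation tests, two-sided, adjusted over 8 relations, p = 0.0012 and 0.0231). Without the 2 livers farthest from the median score r was 0.92 (permutation test, adjusted p = 0.0586), so the relation held in size. In the vehicle livers r was 0.57 and rho 0.59 (permutation tests, adjusted p = 0.1415 and 0.1276), and r was 0.05 without the 2 farthest livers. S217879 replicate 9, with 646.7 TPM of Serpina3n, was also the highest of its group for 20 of the 21 acute phase genes, among them Saa1 with 469 TPM against 69.0 to 242 TPM in the other 9.

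Serpina1e is known in mice to be expressed more in males, and its spread was set against a score of 17 tested male-biased liver genes. In vehicle livers r was 0.89 and rho 0.81 (permutation tests, adjusted p = 0.0033 and 0.0281), and r was 0.82 without the 2 farthest livers (permutation test, adjusted p = 0.0586). In S217879 livers r was 0.84 and rho 0.78 (permutation tests, adjusted p = 0.0124 and 0.0281). There r fell to 0.30 without the 2 farthest, so the relation rests on those livers. Between the groups the male-biased genes did not move together, with 3 higher and 6 lower of 17, beside 6.07% higher and 23.5% lower over all genes. Mup3, a major urinary protein, fell from 2342 ± 772 to 631 ± 398 TPM (log2 difference -2.0, limma adjusted p = 2.72e-05), whereas Ugt2b1, a glucuronosyltransferase, rose from 139 ± 41.9 to 447 ± 97.3 TPM (1.73, limma adjusted p = 1.18e-09). Of 8 female-biased genes tested 4 were higher and 3 lower.

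**Figure D5:**
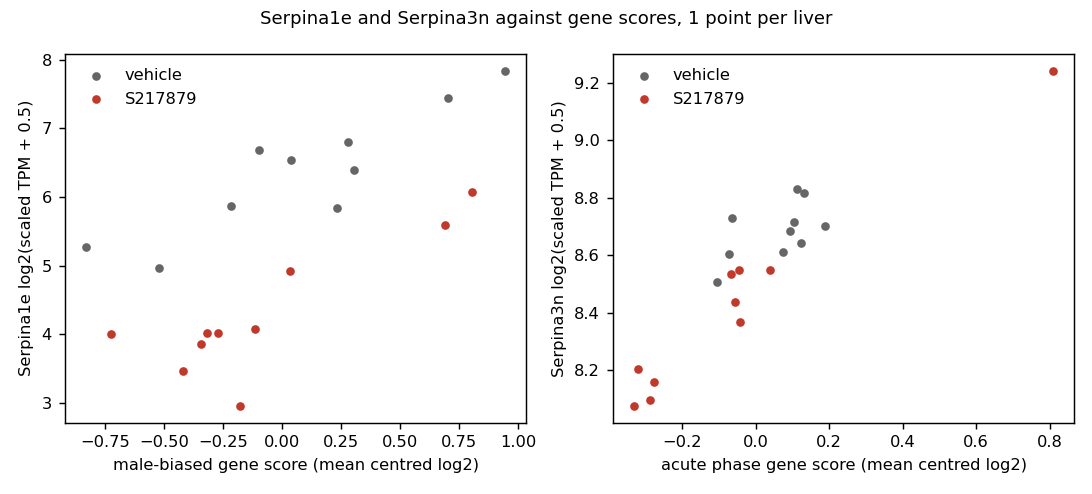
Left, Serpina1e log2(scaled TPM + 0.5) against the male-biased gene score; right, Serpina3n against the acute phase gene score; 1 point per liver, grey for vehicle and red for S217879, values after median-of-ratios scaling. At right the single S217879 point at the upper end is replicate 9, and r is 0.97 with it and 0.92 without the 2 livers farthest on the score.

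Serpina6 was not related to the acute phase score past the threshold, with r of -0.60 in vehicle and 0.35 in S217879 livers (permutation tests, adjusted p = 0.1147 and 0.3123). Serpinb1a was not related past the threshold to a score of 23 NRF2 target genes within either group, with r of -0.05 in vehicle and 0.42 in S217879 livers (permutation tests, adjusted p = 0.8922 and 0.2566). These tests concern differences between animals of a group, not the difference between the groups. In TPM as deposited, where all genes of a liver share its scale, the vehicle values were 0.81 for Serpina6 and 0.76 for Serpinb1a (permutation tests, adjusted p = 0.0107 and 0.0129), the other sign from the scaled ones.

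Among the serpins themselves, 20 of 90 pairwise correlations (45 pairs in each group) passed the permutation test adjusted over the 90, and each of the 20 was positive. Of the 10 Serpina1 pairs 6 passed in vehicle livers (all 10 between 0.42 and 0.93) and 4 in S217879 livers (0.40 to 0.95). These counts are by Pearson's r. By Spearman's rho the same 6 vehicle pairs passed (permutation tests, adjusted p = 0.0099 to 0.0444). The 4 S217879 pairs did not, with rho of 0.47 to 0.79 (permutation tests, adjusted p = 0.0618 to 0.3315). Their r was 0.24 to 0.79 without the 2 farthest livers. Without vehicle replicates 6 and 7, 2 of the 90 passed. That setting removes no S217879 liver, and the adjustment covers the pairs of both groups together. The lower count therefore does not show that the S217879 correlations depend on those 2 livers. In S217879 livers Serpinb1a followed Serpina1c with r of 0.92 and rho of 0.85 (permutation tests, adjusted p = 0.0080 and 0.0402), and r was 0.75 without the 2 farthest livers. In vehicle livers r was -0.03 for these 2 genes (permutation test, adjusted p = 0.9570). Replicate 3 of the S217879 group had the highest level of both genes in that group, 48.57 and 3194 TPM. It was also the highest S217879 liver for Serpina1a and Serpina1d, with 875.5 and 1951 TPM. Serpina3n followed Serpina3m in S217879 livers with r of 0.77 and rho of 0.83 (permutation tests, adjusted p = 0.0175 and 0.0444). There r was 0.65 without the 2 farthest livers. S217879 replicate 9 had the highest level of both in its group, 646.7 and 332.2 TPM. In vehicle livers r was -0.27 for this pair (permutation test, adjusted p = 0.5719).

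For each serpin the 3 named genes of most similar pattern were found by Pearson's r over the 20 livers after removal of group means, among the 7954 genes whose mean reached 5 TPM. As a description, Serpina1e was most like Selenbp2 (r = 0.88), C6 (0.87) and C8b (0.85), the last 2 being terminal complement components. All 3 are on the male-biased list. Serpina3n was most like Itih4 (0.89), Itih3 (0.87) and Stat3 (0.87). The first 2 encode inter-alpha-inhibitor heavy chains and are on the acute phase list. Their r was 0.37, 0.40 and 0.43 within vehicle livers and 0.93, 0.91 and 0.97 within S217879 livers.

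Serpina1a, Serpina1c and Serpina1d had the same first gene, Il1rap, an interleukin-1 receptor chain (r = 0.89, 0.93 and 0.90), and Serpina1b was most like Azgp1 (0.93), a secreted zinc-binding glycoprotein. Serpina3k was most like Hao1 (0.86), a peroxisomal oxidase, Serpina3m like Kng2 (0.85), a kininogen, and Serpina6 like Dmac2 (0.89). Serpinb1a had the lowest best value, 0.78 with Entr1, at 0.36 in vehicle and 0.90 in S217879 livers. The points in these correlations share the same library scaling.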

How the data were processed

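The deposited table gives TPM values (transcripts scaled by gene length and library total) made by the authors, summing to 1000000 in each of 20 libraries, for 49315 genes. Per the labels' protocols, total RNA went into stranded libraries of polyadenylated RNA. The tools were featureCounts, Subread 1.5.2, STAR 2.5.2b and Trimmomatic 0.36 on GRCm38, per the submitters' processing notes. Their roles, annotation, strand and multi-mapping settings were not given in the sources used here. TPM keeps no depth, so read numbers are unknown. Libraries were grouped by the treatment label and columns matched by animal number, with 0 columns unmapped and 0 pairs of identical libraries. Each animal has its own number, but nothing else states that libraries are biological replicates, and p-values measure the spread between them. Gene symbols were found for 48970 identifiers. Positions, exons and transcripts came from GENCODE M21, promoters from RefSeq.

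Values were taken as log2(TPM + 0.5), a scale that understates changes of low genes, for the 13401 genes whose mean reached 1 TPM. S217879 was compared with vehicle by limma 3.58.1 in R 4.3.3 (eBayes with trend and robust, Benjamini-Hochberg over all genes, threshold 0.05), with steps tested on simulated data. Relations within groups used median-of-ratios scaled values and two-sided permutation tests of 100000 resamples (20000 for alternative settings of the gene pairs), in Python 3.11.15. Coding sequences were aligned with MAFFT 7.526. The members, gene lists and tests were chosen with earlier results of these data known. Named were the 10 serpins, the 6 other serpins of highest mean and those called with at least 1.5-fold difference, the 2 members of each list that rose and the 2 that fell most, and for each serpin the 3 most similar genes. Not every gene so chosen is described, and Alb, Elane, Ly6g, Mpo, Ctsg, Saa1, Serpinb1b, Serpinb1c and Serpinb9e were named after their values were seen. So were Serpina10, Serpina12, Serpinb6a and Serpinb6b, which were called with less than 1.5-fold difference and fall outside these rules. Alternatives were other pseudocounts, minimum levels, scalings, array weights and leaving out libraries.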

Additional observations from a re-analysis of the deposited data

Results flagged for a closer look

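In each of the 10 serpins and 2 groups, 20 sets of 10 livers in all, the highest and lowest liver were compared with the rest by Dixon's ratio of the gap to the whole range, which chance alone passes in about 1 of 20 sets. S217879 replicate 9 stood apart for Serpina3n, with 647 TPM and a gap of 0.744 of the range. It also had the lowest Serpinb1a of its group, 20.2 TPM. S217879 replicate 3 stood apart for Serpinb1a, with 48.6 TPM and a gap of 0.489 of the range.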

How the results depend on the processing

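The differences of Serpinb1a and Serpina1e kept their direction and side of the threshold in all 32 alternatives. Serpina1b became -0.05 with quantile normalization. With median-of-ratios scaling 3561 genes, 6 members, 8 other serpins and 56 list genes were higher, in place of 813, 2, 3 and 36, and quantile normalization gave 3536 genes. In place of 3151 lower genes there were 8023 with array weights, 1642 at a minimum of 5 TPM, 7303 without vehicle replicates 6 and 7 and 8576 when the rRNA-type genes were removed and TPM rescaled. Lower list genes were 94, 71, 95 and 86 with array weights, quantile normalization, that rescaling and without both replicates, in place of 47. Lower members were 4 in place of 2 under each of these 4 settings and 1 at a minimum of 0.1 TPM or with no minimum. Higher members were 1 with array weights, with no minimum and without vehicle replicates 6 and 7. Other serpins higher were 6 and 7 at a minimum of 0.1 TPM and with none, counts that include genes near 0 in vehicle livers, and lower 5 in place of 8 at 5 TPM. Leaving out each library in turn gave 707 to 875 higher and 2656 to 5195 lower genes, 2 higher and 1 to 2 lower members, 3 higher and 8 to 9 lower other serpins, and 33 to 36 higher and 40 to 73 lower list genes, the highest counts of lower genes and list genes (5195 and 73) being without vehicle replicate 6. In TPM as deposited the vehicle r of Serpina3n with the acute phase score was 0.94 (permutation test, adjusted p = 0.0010), that of Serpina6 0.81 in place of -0.60 and that of Serpinb1a with the NRF2 score 0.76 in place of -0.05. Rescaled without rRNA-type genes, Serpina3n gave 0.79. Without the 2 farthest livers the r of 0.97, 0.89 and 0.84 became 0.92, 0.82 and 0.30. Called pairs were 51 in TPM as deposited, 11 after that rescaling and 2 without vehicle replicates 6 and 7, in place of 20. These counts are adjusted over the 90 pairs of both groups together. The cause was not tested. No paired analysis was possible because the labels give no replicate numbers shared between the groups. Depth is unknown, and levels of single Serpina1 copies are limited by their shared sequence.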

Other observations

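Serpinb9e, a clade B gene not among the 10, lay below the minimum level and is described with no test. It ranged from 0 to 0.05060 TPM in vehicle livers, where 2 of 10 were at 0, and from 0.1784 to 1.210 TPM with S217879, without overlap. Serpinb6a and Serpinb6b, a pair of related clade B genes, went opposite ways. Serpinb6a fell from 10.2 ± 1.76 to 6.74 ± 1.18 TPM (log2 difference -0.55, limma adjusted p = 0.000113) and Serpinb6b rose from 10.4 ± 1.93 to 15.1 ± 3.89 TPM (0.51, limma adjusted p = 0.00163, SD, n = 10 each).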
